A study of Mus musculus with 6 samples.

Results

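Transcripts of the proteasome, the protease that degrades ubiquitin-tagged proteins, were compared in left ventricular tissue of 3 mice carrying the 4SA-Rad knock-in allele and 3 wild-type mice. The genes were all rows of the count table whose symbol starts with Psma, Psmb, Psmc, Psmd, Psme, Psmf or Psmg and a digit, without Psmb8, Psmb9, Psmb10 and pseudogene symbols, and with at least 10 counts in at least 3 of the 6 libraries. That gave 48 genes of 34945 listed, and no symbol that matched the pattern fell under the count minimum. The least abundant genes kept were Psma8, with 24, 15 and 16 counts in knock-in and 6, 12 and 14 counts in wild-type mice, and Psmb11, with 10, 29 and 8 counts in knock-in and 9, 17 and 19 counts in wild-type mice. Of the 48 genes, 2 match by symbol only: Psmc3ip encodes a partner protein of the recombination machinery, and Psme3ip1 a protein that binds the activator encoded by Psme3.

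Rad, the product of the gene Rrad, restrains the calcium channels of heart muscle, and the 4SA allele replaces serines that are phosphorylated during adrenergic stimulation with alanine. Both groups are labelled with the strain C57BL/6N and the tissue myocardium, and no age, sex or batch is stated. Libraries held between 24761124 and 39627397 estimated counts, with every knock-in library deeper than every wild-type library, and mitochondrially encoded genes took 53.5% to 56.9% of the counts in knock-in and 53.1% to 55.8% in wild-type mice. Rrad itself, at 27.0, 56.8 and 42.3 CPM (the count scaled to library size by TMM) in knock-in and 44.7, 30.0 and 32.2 CPM in wild-type mice, does not check the labels, because its total does not distinguish the alleles. Markers of ventricular muscle were abundant in both groups, with Myh6 at 18900 ± 161 CPM in knock-in and 18200 ± 660 CPM in wild-type mice (SD, n = 3 each). Nnt, which is deleted in part in the C57BL/6J substrain, averaged 680 CPM in knock-in and 272 CPM in wild-type mice (log2 fold change 1.32 ± 0.07 (SE), edgeR adjusted p = 2.02e-05), so that substrain and the Rad allele cannot be told apart in any comparison here.

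The proteasome is built around the 20S core particle, a barrel of stacked rings. The outer alpha rings gate the entry, and the inner beta rings carry the proteolytic sites. The 19S particle caps the barrel to make the 26S proteasome, and its base unfolds substrates with ATP while its lid removes ubiquitin. Alternative caps encoded by the Psme genes bind the same barrel and open it without ubiquitin. Heart muscle relies on the proteasome for the turnover of sarcomere and signalling proteins, and its subunit genes are induced together by the transcription factor NFE2L1 when proteolysis is impaired.

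The genes of the barrel and of the 19S particle did not pass the test, and both genes that did encode alternative caps. Psme4, which encodes the large single-chain activator PA200, fell to 174 ± 11.1 CPM in knock-in mice, against 213 ± 10.9 CPM in wild-type mice (mean ± SD, n = 3 each). Psme1, which encodes the alpha subunit of the interferon-inducible activator PA28, rose to 1.13 times its wild-type level in knock-in mice. So 2 of 48 genes, 4.17%, were called by edgeR's quasi-likelihood test at an adjusted p below 0.05, with 1 higher and 1 lower in knock-in. Over all 13485 genes tested, 9.01% were called, 4.0% higher and 5.01% lower, so the share called among proteasome genes was not above the background. At an unadjusted p below 0.05 there were 7 of the 48 genes, or 14.6%, against 25.2% of all genes tested.

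The promoters of 3 cap genes are shown because Psme4 and Psme1 passed the test in opposite directions and Psme2, the partner of Psme1 in PA28, did not pass. Each window is 300 bases of RefSeq sequence on GRCm38.p6, written along the strand of the gene across the transcription start. Capitals mark matches on either strand to TGANNNNGC, the core of the antioxidant response element bound by NFE2L1 and NFE2L2, or to the core of the interferon-stimulated response element, searched as GAAA, any 2 bases and GAAA.
Psme4, chr11:30771525-30771824, plus strand: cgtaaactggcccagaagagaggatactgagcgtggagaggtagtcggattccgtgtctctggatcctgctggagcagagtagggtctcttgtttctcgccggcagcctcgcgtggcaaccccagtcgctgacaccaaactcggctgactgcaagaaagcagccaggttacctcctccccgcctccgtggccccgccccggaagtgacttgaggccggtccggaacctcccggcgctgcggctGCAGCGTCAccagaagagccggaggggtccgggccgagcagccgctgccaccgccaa
Psme1, chr14:55578244-55578543, plus strand: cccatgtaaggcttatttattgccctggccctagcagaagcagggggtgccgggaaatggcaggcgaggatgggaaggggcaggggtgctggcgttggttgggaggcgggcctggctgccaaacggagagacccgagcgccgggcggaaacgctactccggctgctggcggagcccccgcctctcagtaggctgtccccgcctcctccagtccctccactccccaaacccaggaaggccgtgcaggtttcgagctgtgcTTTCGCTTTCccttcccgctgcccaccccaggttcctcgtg
Psme2, chr14:55591052-55591351, minus strand: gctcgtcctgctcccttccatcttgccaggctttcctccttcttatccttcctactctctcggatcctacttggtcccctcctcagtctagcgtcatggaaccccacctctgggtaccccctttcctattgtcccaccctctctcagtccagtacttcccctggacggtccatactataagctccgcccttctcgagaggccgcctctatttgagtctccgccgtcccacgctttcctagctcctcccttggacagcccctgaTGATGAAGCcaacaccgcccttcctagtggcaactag
In Psme4 the capitals are a match to the antioxidant core on the minus strand, at letters 244 to 252 of the window. In Psme1 they are a match to the interferon core, also on the minus strand, at letters 260 to 269. In Psme2 they are a match to the antioxidant core on the plus strand, at letters 264 to 272, in the farther upstream of 2 windows listed for that gene. Windows were found for 40 of the 48 genes, and 25 of their 44 windows (56.8%) held TGANNNNGC, against 41.3% of all 32851 promoter windows. The interferon core was in 5 of the 44 (11.4%), in Psmb3, Psmd4, Psmd9, Psme1 and Psmg4, against 3.44% of all windows. These are matches of letters and not sites of binding.

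Psme4 lies on chromosome 11 from 30771726 to 30880361 on the plus strand of GRCm38. Its product, PA200, caps the core particle and is known for its part in the breakdown of acetylated histones in spermatids. It had 187, 167 and 169 CPM in knock-in mice 1 to 3, against 221, 201 and 217 CPM in wild-type mice 1 to 3. The ranges did not overlap, and knock-in mouse 1 was the nearest to the wild-type mice. The log2 fold change was -0.29 ± 0.06 (SE), with a 95% interval from -0.42 to -0.16 (edgeR adjusted p = 0.0143). Each library held between 5669 and 7075 counts of the gene. Psme4 was called with each of the 9 other scalings, filters and tools tried, but not without knock-in replicate 3 (log2 fold change -0.27, edgeR adjusted p = 0.0838) or wild-type replicate 3 (-0.28, 0.0551). As a ratio of counts to the summed 20S subunit genes, which no scaling touches, Psme4 stood at 0.387, 0.344 and 0.352 in knock-in and at 0.436, 0.413 and 0.436 in wild-type mice. Gm12103, an antisense gene within it, had 0 counts in all 6 libraries.

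Psme1 lies on chromosome 14 from 55578123 to 55581529 on the plus strand. PA28 widens the entry of the core particle and favours peptides used for antigen presentation. Psme1 had 49.0, 49.6 and 51.5 CPM in knock-in mice, against 42.8, 44.5 and 45 CPM in wild-type mice. All 3 knock-in values were above all 3 wild-type values. The log2 fold change was 0.18 ± 0.05 (95% interval 0.08 to 0.29, edgeR adjusted p = 0.0405), close to the threshold. It did not pass with library size as the only scaling (log2 fold change 0.10, edgeR adjusted p = 0.386) or with DESeq2 (adjusted p = 0.06), and of the 6 leave-one-out fits, each without 1 library, only the one without knock-in replicate 1 called it (edgeR adjusted p = 0.0381; 0.0853 to 0.17 in the other 5). Without wild-type replicate 1, wild-type replicate 2 and wild-type replicate 3 the adjusted p was 0.103, 0.0903 and 0.0853, and without knock-in replicate 2 and knock-in replicate 3 it was 0.0988 and 0.17. Emc9, an overlapping gene on the other strand, stood at 9.47 ± 0.688 CPM in knock-in and 9.08 ± 0.710 CPM in wild-type mice (edgeR adjusted p = 0.696).

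Psme2, which encodes the beta subunit of PA28, had 15.0, 15.4 and 14.9 CPM in knock-in mice, against 15.7, 15.8 and 15.8 CPM in wild-type mice. Its ranges did not overlap either, but the difference was small and did not pass (log2 fold change -0.06, 95% interval -0.19 to 0.06, edgeR adjusted p = 0.547). Psme1 and Psme2 are neighbours on chromosome 14. The ratio of Psme1 to Psme2 counts was 3.26, 3.23 and 3.46 in knock-in and 2.73, 2.81 and 2.85 in wild-type mice, a ratio chosen after its values were seen and therefore not tested. Psme2b, a near-identical copy of Psme2 whose reads cannot be separated with certainty, stayed at 0.606 to 0.807 CPM in knock-in and 0.623 to 0.775 CPM in wild-type mice.

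Psme3 encodes the gamma form of PA28, found mainly in the nucleus. It had 36.6, 33.1 and 35.2 CPM in knock-in mice, against 38.3, 38.5 and 40.7 CPM in wild-type mice. The knock-in values were all lower, yet the gene did not pass (log2 fold change -0.16, 95% interval -0.29 to -0.04, edgeR adjusted p = 0.102). It passed with library size as the only scaling. Psmf1 encodes PI31, first described as an inhibitor of the core particle, and had overlapping ranges of 9.27 to 9.52 CPM in knock-in and 8.04 to 9.55 CPM in wild-type mice (edgeR adjusted p = 0.413). The class of caps and PI31 thus held 2 called genes among 6, Psme1 higher and Psme4 lower in knock-in, and 4 that were not called. That share was 33.3%, against 9.01% of all genes tested, in a small class whose share was not tested. Of the 6 leave-one-out fits, only the one without knock-in replicate 1 called both. Without knock-in replicate 3 or wild-type replicate 3, none of the class was called.

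**Figure D1:**
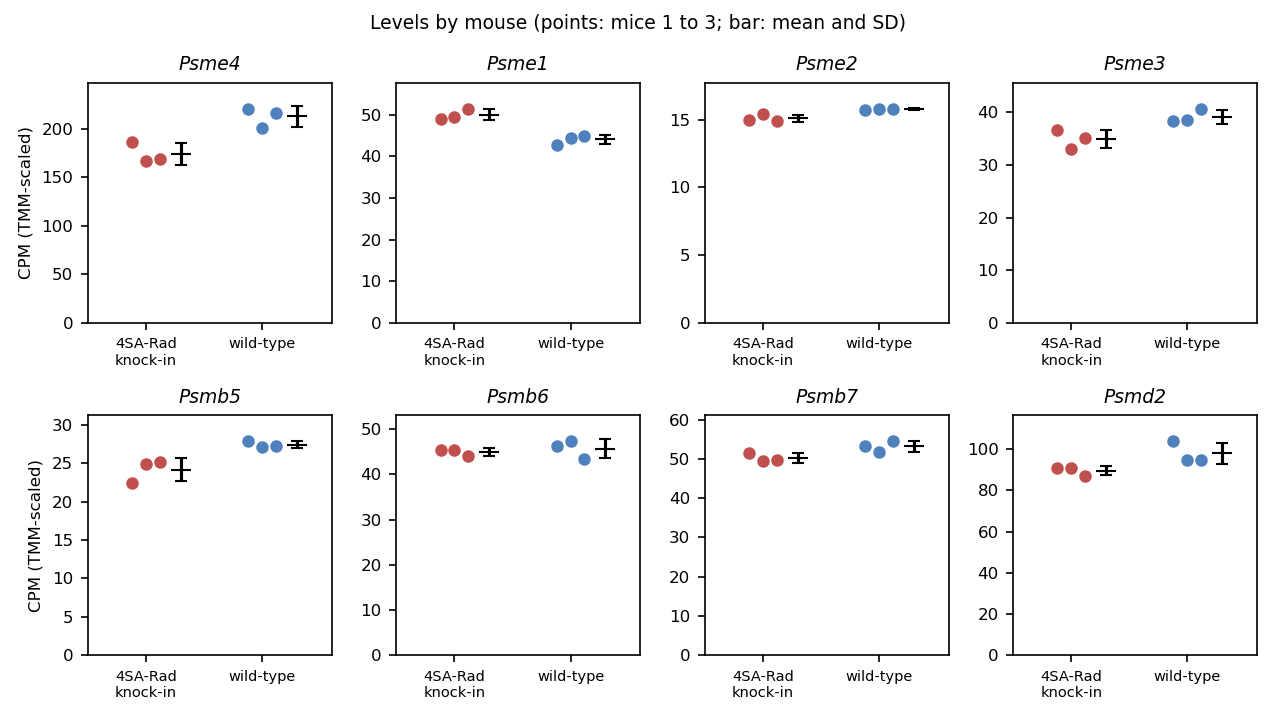
TMM-scaled CPM of 8 proteasome genes in each knock-in mouse (left in each panel, red) and each wild-type mouse (right, blue), with the mean and SD of 3 mice beside the points and axes starting at 0. Psme4 is lower and Psme1 higher in all 3 knock-in mice. Psme2, Psme3, Psmb5, Psmb7 and Psmd2 are also lower in all 3 but did not pass the test, and Psmb6 overlaps between the groups.

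The proteolytic sites of the beta ring belong to the subunits of Psmb5, Psmb6 and Psmb7. Psmb5, which holds the chymotrypsin-like site, had 22.4, 24.9 and 25.2 CPM in knock-in mice, against 27.9, 27.1 and 27.2 CPM in wild-type mice. The ranges were apart, but the log2 fold change of -0.18 ± 0.06 (95% interval -0.32 to -0.04) did not pass (edgeR adjusted p = 0.1), nor did it under any other setting tried. Psmb7, with the trypsin-like site, had 51.6, 49.4 and 49.7 CPM in knock-in mice and 53.4, 51.8 and 54.6 CPM in wild-type mice (log2 fold change -0.08, 95% interval -0.19 to 0.02, edgeR adjusted p = 0.292). Psmb6, with the caspase-like site, had 45.5, 45.3 and 44.0 CPM in knock-in mice and 46.2, 47.4 and 43.4 CPM in wild-type mice. Its ranges overlapped and its log2 fold change was -0.02 (95% interval -0.14 to 0.09, edgeR adjusted p = 0.819).

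The other genes of the beta ring, Psmb1 to Psmb4, encode subunits without an active site, and none of the 4 passed (smallest edgeR adjusted p = 0.364, Psmb4). For Psmb4 the values were 23.5, 24.1 and 25.2 CPM in knock-in mice and 27.9, 25.0 and 25.2 CPM in wild-type mice. All 7 genes Psmb1 to Psmb7 had log2 fold changes below 0, between -0.18 and -0.02, against 49.3% of all genes tested. The 7 values come from the same mice and are not separate observations. Without wild-type replicate 1, 3 of the 4 genes Psmb1 to Psmb4 were below 0. Without wild-type replicate 2, Psmb6 was at 0.00, above 0 in sign. Summed over the ring, knock-in mice had 242, 243 and 242 CPM and wild-type mice 260, 253 and 252 CPM. Of the alpha ring genes Psma1 to Psma7, which form the gate, 3 were below 0 and 4 above, between -0.11 and 0.05, though all 7 were below 0 with library size as the only scaling. Their sums, 241, 242 and 237 CPM in knock-in and 247, 232 and 246 CPM in wild-type mice, overlapped. The ratio of beta ring to alpha ring counts, looked at after these values were seen and not tested, was 1.0, 1.0 and 1.02 in knock-in and 1.05, 1.09 and 1.03 in wild-type mice.

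The testis subunit gene Psma8 and the thymus subunit gene Psmb11 were at most 0.836 CPM in any library. Psma8 had 0.727, 0.432 and 0.397 CPM in knock-in mice and 0.234, 0.358 and 0.430 CPM in wild-type mice (log2 fold change 0.56, 95% interval -0.29 to 1.42, edgeR adjusted p = 0.408). A difference in these genes was not detectable at this depth.

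In the 19S base, the 6 ATPase genes Psmc1 to Psmc6, whose products unfold substrates and thread them into the barrel, had log2 fold changes from -0.12 to 0.05. None passed, and the smallest edgeR adjusted p was 0.285, for Psmc4, at 26.2, 25.6 and 25.5 CPM in knock-in mice against 28.6, 25.8 and 29.7 CPM in wild-type mice. Psmd2, the scaffold of the base that docks ubiquitin shuttle proteins, had 90.7, 90.8 and 87.1 CPM in knock-in mice against 104, 94.9 and 94.9 CPM in wild-type mice. Its ranges did not overlap, and it did not pass (log2 fold change -0.13, 95% interval -0.24 to -0.02, edgeR adjusted p = 0.131). With library size as the only scaling it did (log2 fold change -0.21, edgeR adjusted p = 0.0484). Psmd4, a ubiquitin receptor, stood at 32.4, 35.1 and 34.4 CPM in knock-in mice and 37.5, 35.7 and 37.8 CPM in wild-type mice (edgeR adjusted p = 0.19). Psmd1, the other scaffold of the base, had a log2 fold change of 0.01 with a 95% interval from -0.09 to 0.11.

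The 8 lid genes include Psmd14, which encodes the enzyme that cuts ubiquitin from substrates. Their log2 fold changes ran from -0.15 for Psmd6 to 0.04 for Psmd13, 6 below 0 and 2 above, and none passed. Psmd8 had the smallest p of the lid, at 37.9, 36.4 and 40.6 CPM in knock-in mice and 43.2, 40.2 and 42.6 CPM in wild-type mice (edgeR adjusted p = 0.181). Psmd14 itself had a log2 fold change of 0.01 (95% interval -0.17 to 0.18). The ratio of summed 19S counts to summed 20S counts was 1.63, 1.6 and 1.6 in knock-in and 1.63, 1.6 and 1.66 in wild-type mice, with overlapping ranges.

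Across the 31 constitutive genes of the 20S and 19S particles, 0 were called by edgeR, 0 by DESeq2 and 0 by limma-voom, and 4, 2 and 4 had an unadjusted p below 0.05 in the same order of tools. All 31 log2 fold changes were between -0.18 and 0.05, and their 95% intervals lay within -0.32 and 0.19. The median was -0.06, with 23 below 0 and 8 above, beside a median of 0.00 over all genes tested. With library size as the only scaling all 31 were below 0, at a median of -0.14, and 1 was called, while the median of all genes also moved, to -0.08. CPM ranges of the genotypes were apart in 9 of all 48 genes, or 18.8% (7 lower, 2 higher in knock-in), against 29.4% of all genes tested. The 48 genes together made up 0.35%, 0.352% and 0.344% of the counts not from the mitochondrial genome in knock-in mice, and 0.377%, 0.37% and 0.384% in wild-type mice. These shares are not scaled by TMM. In TMM-scaled CPM the 48 genes summed to 1610, 1580 and 1570 in knock-in and 1710, 1620 and 1700 in wild-type mice. Psme4 alone took 11.6%, 10.5% and 10.7% of the counts of the 48 genes in knock-in and 12.9%, 12.4% and 12.8% in wild-type mice. Replicates were close, with a median coefficient of variation of 3.66% in knock-in and 4.42% in wild-type mice for the 31 genes, against 7.36% and 7.70% over all genes tested, most of which have fewer counts.

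**Figure D2:**
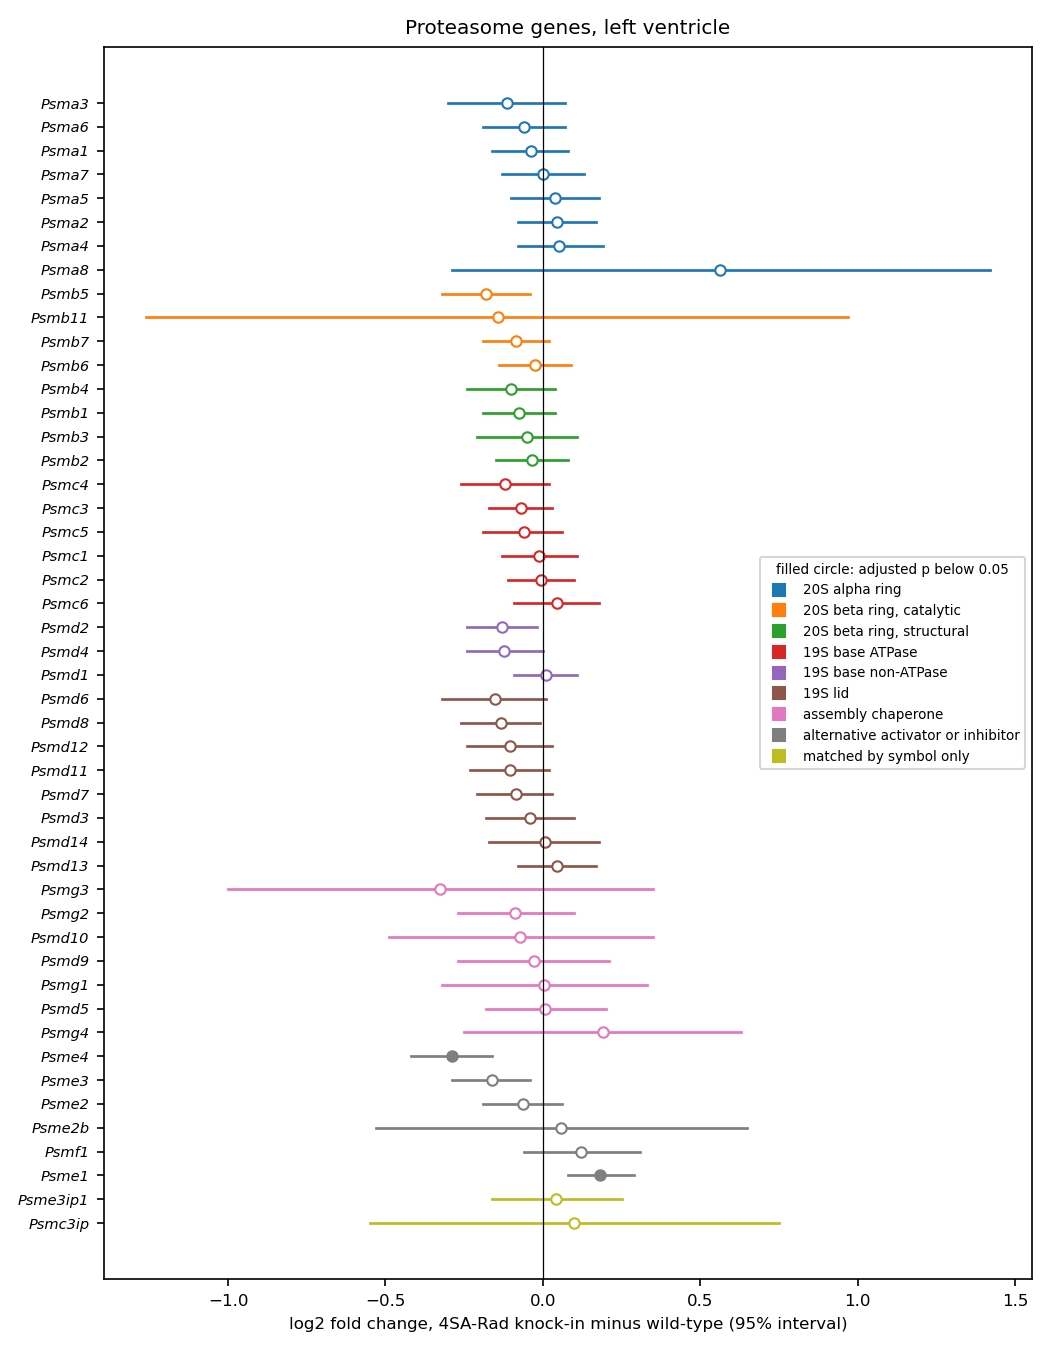
Log2 fold change (knock-in minus wild-type) with its 95% interval for the 48 genes, ordered by role, where filled circles mark an edgeR adjusted p below 0.05. The filled circles are Psme4 at -0.29 and Psme1 at 0.18, and the widest intervals belong to the scarce transcripts Psmb11 and Psma8.

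**Figure D3:**
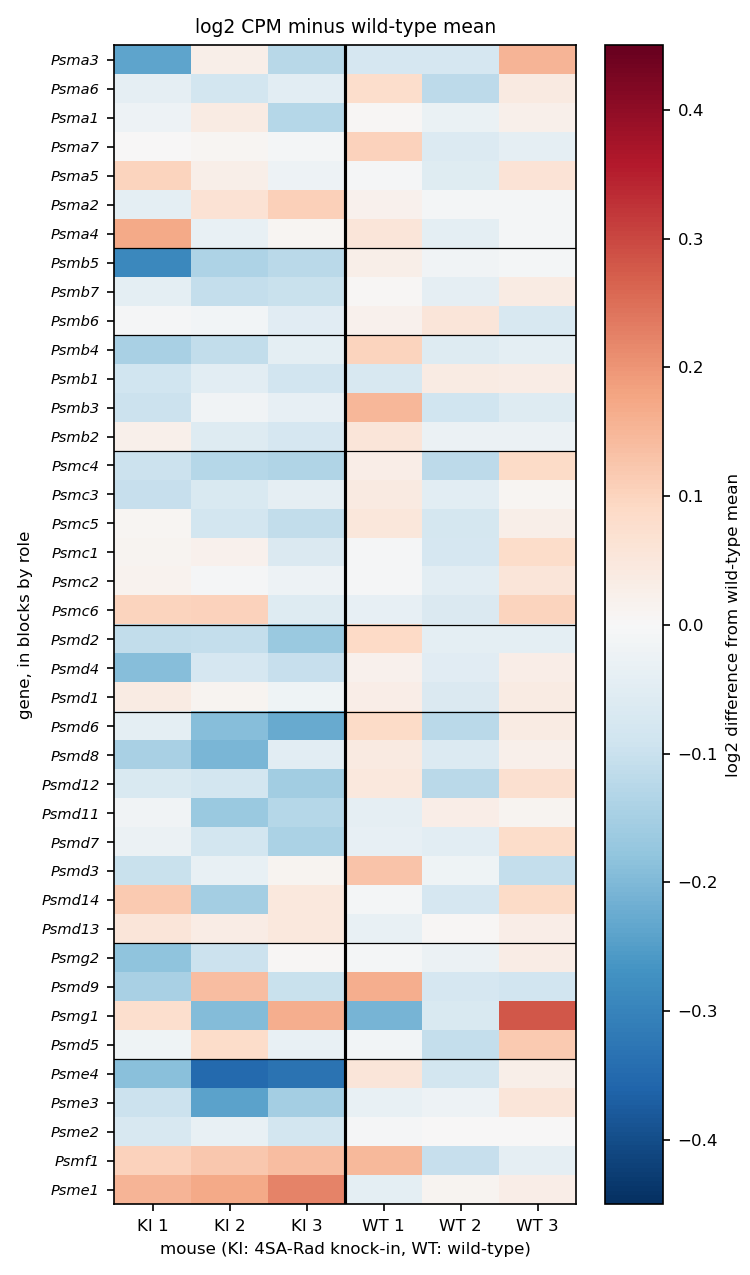
Difference of log2 CPM from the wild-type mean in each mouse, for the 40 particle, chaperone and cap genes at 2.5 CPM or more in a genotype, in blocks by role with knock-in mice on the left. Psme4 lies below and Psme1 above the wild-type mean in all 3 knock-in mice. Some genes that did not pass, such as Psmb5 and Psme3, also lie below it in all 3, and Psmg1 varies among the wild-type mice.

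The assembly chaperone genes encode proteins that build the particle and then leave it, Psmg1 to Psmg4 for the barrel and Psmd5, Psmd9 and Psmd10 for the base. None of the 7 passed with edgeR, DESeq2 or limma-voom, and 0 had an unadjusted p below 0.05 with any of the 3 tools. Log2 fold changes ran from -0.33 for Psmg3 to 0.19 for Psmg4, with a standard error of up to 0.31. Psmg3 had 0.697, 0.922 and 1.49 CPM in knock-in mice and 0.974, 1.58 and 1.35 CPM in wild-type mice, so that its mice differed more within a genotype than between them. Psmc3ip and Psme3ip1, which match by symbol only, had edgeR adjusted p of 0.873 and 0.822, with Psme3ip1 at 10.6 to 13.0 CPM in knock-in and 10.6 to 11.9 CPM in wild-type mice.

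Levels were compared between genes as mean CPM per kilobase of the principal transcript in GENCODE M21. The 14 genes of the core particle ran from 9.03 (Psma3) to 56.3 (Psmb6) CPM per kilobase in knock-in and from 9.77 to 57.2 in wild-type mice, for the same genes. The 17 genes of the 19S particle ran from 12.1 (Psmd13) to 48.1 (Psmc3) CPM per kilobase in knock-in and from 11.7 to 50.5 in wild-type mice. Among the caps, Psme1 had 45 and Psme4 26.8 CPM per kilobase in knock-in mice, against 39.6 for Psme1 and 32.8 for Psme4 in wild-type mice. Below them came Psme2, Psme3, Psmf1 and Psme2b, in that order in both genotypes. Chaperone transcripts were scarcer, at a median of 2.65 CPM per kilobase in knock-in and 2.72 in wild-type mice, against 31.1 and 33.4 for the core particle. These levels depend on the transcript taken, and for Psma2 and Psma3 it was 2911 and 2846 bases long, more than for the other alpha ring genes.

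**Figure D4:**
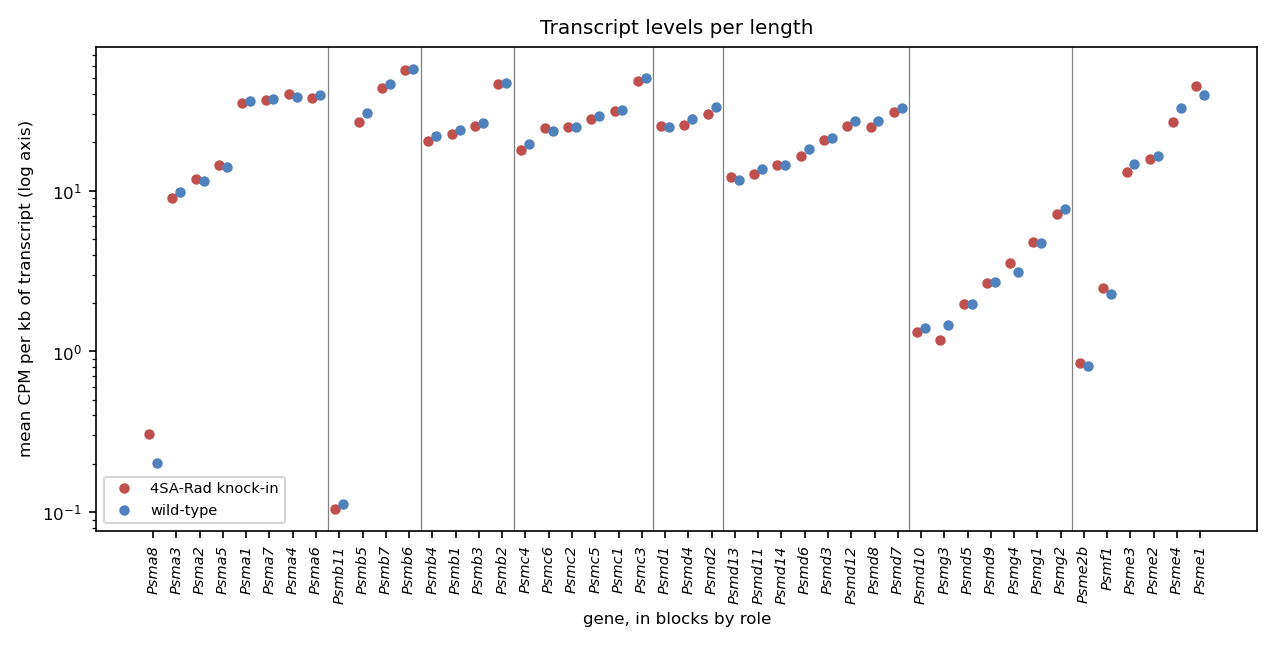
Mean CPM per kilobase of transcript (log axis) for the particle, chaperone and cap genes, in blocks by role, knock-in (red, left) beside wild-type (blue, right). Most genes of the barrel and the 19S particle lie within the same range in both genotypes, and the chaperones lie below it.

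The immunoproteasome subunits, which replace the catalytic subunits after interferon signalling, are not among the 48 genes. Psmb9, which replaces Psmb6, rose to 3.36, 3.77 and 3.07 CPM in knock-in mice, against 2.34, 1.55 and 1.94 CPM in wild-type mice (log2 fold change 0.82 ± 0.18, edgeR adjusted p = 0.0203). Of the 6 leave-one-out fits Psmb9 passed in those without knock-in replicate 1 (edgeR adjusted p = 0.0282) and wild-type replicate 1 (0.0211), and had 0.0607 to 0.0716 in the others. Psmb8 (5.93 ± 0.610 CPM in knock-in, 5.08 ± 0.467 CPM in wild-type mice) and Psmb10 (11.9 ± 0.373 and 12.3 ± 1.31 CPM in the same order) did not pass. Tap1, a peptide transporter gene that overlaps Psmb9 on the other strand, stood at 7.57 ± 0.486 CPM in knock-in and 4.52 ± 0.841 CPM in wild-type mice (log2 fold change 0.75 ± 0.13, edgeR adjusted p = 0.00921), and as no source states whether strand was used in counting, reads of Psmb9 and Tap1 cannot be told apart where they overlap. Some macrophage markers differed by genotype beside Psme1 and Psmb9. Of 5 macrophage markers 3 fell (Csf1r, Adgre1 and C1qa, with edgeR adjusted p of 0.0175, 0.0223 and 0.0278). The share called was 60.0%, against 9.01% of all genes tested. The list summed to 55.7 to 63.5 CPM in knock-in and 70.3 to 72.8 CPM in wild-type mice. The macrophage calls were lost in most leave-one-out fits: Csf1r passed in 3, Adgre1 in 2 and C1qa in 2 of 6, and none of them passed without knock-in replicate 2 (0.0545, 0.0697 and 0.0659 in that order) or knock-in replicate 3 (0.0726, 0.1 and 0.116). The part of these markers in the differences of Psme1 and Psmb9 was not tested, and in tissue RNA fewer cells of a type and less RNA per cell cannot be told apart.

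Of 17 tested partners of the proteasome that lack a Psm symbol, 15 were not called and 2 were, both lower in knock-in. These calls made up 11.8% of the list, near the 9.01% of all genes tested. Ecpas, which encodes an adaptor that holds the particle and its cap together, fell to 89.2 ± 3.01 CPM in knock-in mice, against 106 ± 4.63 CPM in wild-type mice (log2 fold change -0.24 ± 0.05, edgeR adjusted p = 0.0143). Ecpas did not pass without knock-in replicate 3 (edgeR adjusted p = 0.0873) or wild-type replicate 3 (0.0594). Ubqln4, a ubiquitin shuttle gene, fell by 0.21 ± 0.06 on the log2 scale (edgeR adjusted p = 0.0449). In the leave-one-out fits Ubqln4 passed without knock-in replicate 1 (0.0355) or wild-type replicate 2 (0.0441), and had 0.104 to 0.186 in the others. The maturation factor gene Pomp stood at 26.4 ± 1.11 CPM in knock-in and 26 ± 2.33 CPM in wild-type mice, and the lid component gene Sem1 at 44.7 ± 0.476 and 42.1 ± 2.15 CPM. The median log2 fold change of the 17 genes was -0.10.

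Of 8 genes listed for the NFE2L1 pathway, which include the gene of the related factor NFE2L2, 3 fell and 5 did not pass. The share called was 37.5%, against 9.01% of all genes tested. Nfe2l1 itself had 348 ± 3.82 CPM in knock-in and 322 ± 9.40 CPM in wild-type mice (log2 fold change 0.11, edgeR adjusted p = 0.124). The genes that fell encode its partners, the small Maf proteins Mafk (log2 fold change -0.57 ± 0.08, edgeR adjusted p = 0.00342) and Mafg (-0.26 ± 0.06, 0.025), and the related factor Nfe2l2 (-0.43 ± 0.10, 0.0264). Mafk passed in all 6 leave-one-out fits (edgeR adjusted p at most 0.0278). Mafg and Nfe2l2 passed in the fit without knock-in replicate 1 alone (0.015 for Mafg, 0.000338 for Nfe2l2), with 0.0548 to 0.0877 for Mafg and 0.0546 to 0.127 for Nfe2l2 in the others. Of 7 tested NFE2L2 targets 1 fell and 6 did not pass, so that 14.3% were called, against 9.01% of all genes tested. Hmox1 fell to 2.53 ± 0.255 CPM in knock-in mice, against 4.46 ± 0.514 CPM in wild-type mice (edgeR adjusted p = 0.00808). Without knock-in replicate 3 its edgeR adjusted p was 0.0521.

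Of 8 tested genes of the VCP unfoldase, which extracts ubiquitinated proteins for degradation, 1 was called, or 12.5%, against 9.01% of all genes tested. The cofactor gene Nploc4 fell by 0.22 ± 0.05 on the log2 scale (edgeR adjusted p = 0.0289), and 7 genes did not pass. In the leave-one-out fits other than that without knock-in replicate 1, Nploc4 had an edgeR adjusted p of 0.0541 to 0.126.

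Heat shock genes were uneven among the knock-in mice, with a median coefficient of variation of 16.5%, against 5.04% in wild-type mice. Of 18 tested genes 6 fell, among them Hspa4l, Stip1, Hspa8 and Bag3 (edgeR adjusted p of 0.0228, 0.03, 0.0318 and 0.036), none rose and 12 did not pass. The share called was 33.3%, against 9.01% of all genes tested, and the median log2 fold change was -0.41. Of the 6 leave-one-out fits, Stip1, Hspa8 and Bag3 passed only in that without knock-in replicate 1 (0.00054, 0.000349 and 0.001 in that order), with adjusted p of 0.0638 to 0.151 in the others, and Hspa4l passed without knock-in replicate 1 (0.00478) or wild-type replicate 2 (0.0194), with 0.0674 to 0.111 in the others. Their summed level was 3850, 2900 and 3010 CPM in knock-in mice and 4120, 3930 and 4110 CPM in wild-type mice, and knock-in mouse 1, nearest to the wild-type mice in Psme4, was also nearest here. Without knock-in replicate 1 the log2 fold change of Psme4 was -0.34 (edgeR adjusted p = 0.00498), and the part of the heat shock difference in it was not tested. Other markers included the erythroid genes, whose sums of 602 to 5300 CPM in knock-in and 585 to 2230 CPM in wild-type mice differed widely within each genotype, and the atrial genes (69.8 to 122 and 49.6 to 127 CPM in the same order), of which none passed (smallest edgeR adjusted p of 0.214 for Hbb-bt and 0.151 for Nppa). Of 5 fibroblast markers none passed (smallest edgeR adjusted p = 0.0635, Pdgfra), and of 5 endothelial markers Tie1 fell (0.0321), a call kept without knock-in replicate 1 (0.0486) or wild-type replicate 2 (0.0381) and lost without any other library (0.0511 to 0.143). Of 6 ventricular muscle markers none passed (smallest 0.0586, Tnnt2), with sums of 36100 to 37000 CPM in knock-in and 34500 to 36800 CPM in wild-type mice.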

How the data were processed

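Left ventricular RNA of 6 mice was sequenced from stranded TruSeq libraries, per the labels' protocols. The deposited table holds raw estimated counts per gene symbol, all whole numbers; bcl2fastq 2.19, kallisto 0.44.0 and GRCm38 are named in the submitters' processing notes. Not given in the sources used here are the transcript annotation, the summing to symbols and whether strand was used, so counts of near-identical copies and overlapping genes are uncertain. All 6 sample columns were used.

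The values were taken as rounded estimated counts into edgeR 4.0.16 (R 4.3.3). The filterByExpr step left 13485 genes and all 48 proteasome genes; libraries were scaled by TMM, and genotype was tested with the quasi-likelihood F test (two-sided, no covariate) with Benjamini-Hochberg adjustment over all genes tested. A positive log2 fold change means higher in knock-in, and 95% intervals use the moderated degrees of freedom. Rose, fell or changed is written only for an adjusted p below 0.05. Replicates were numbered in order of listing. Pairs of libraries of a genotype differed by 8.4 or more in chi-square per degree of freedom, above sampling noise. The p-values set each genotype difference against the variation between mice. The labels do not say that the mice are from separate litters, so how far the differences hold in other mice is not known. The script was tested on simulated data.

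The genes, lists and settings were chosen with earlier results of these data known. Genes are named if called, if catalytic (Psmb5, Psmb6, Psmb7), if of the smallest p in their role class, and, from each further list, if among the up to 4 called genes of smallest p, or otherwise if of the smallest p. Other genes named as examples (Psme2, Psme3, Psmf1, Psmd1, Psmd4, Psmd14, Nfe2l1, Pomp, Sem1, Tap1 and Emc9) were chosen after their values were seen. Alternatives were DESeq2 1.42.0, limma-voom (limma 3.58.1), other scalings and filters, robust dispersions, and leaving out each library. Lengths and coordinates are from GENCODE M21, and Psme3ip1 had no match there. The results of 2 further gene lists are not reported here.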

Additional observations from a re-analysis of the deposited data

How the results depend on the processing

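The count of proteasome genes called, 2, was 0 to 2 without single libraries, with 0 of 48 called without knock-in replicate 3 or wild-type replicate 3 (edgeR; 5 and 4 at an unadjusted p below 0.05), and it was 1 with DESeq2. With library size as the only scaling 3 were called (Psme4, Psme3 and Psmd2, all lower), the median log2 fold change of the 48 genes was -0.13 against -0.05, and that of all genes -0.08, so that the gap between them stayed at -0.05. That scaling called 227 higher and 1177 lower genes in all, against 540 higher and 675 lower with TMM and 604 and 573 with upper-quartile factors. The count of all genes called, 1215, was 1591 with no filter on low counts, and in the leave-one-out fits it ranged from 338 (without knock-in replicate 3) to 1378 (without knock-in replicate 1); leaving out other single mice gave 485 (wild-type replicate 3), 672 (knock-in replicate 2), 746 (wild-type replicate 2) and 775 (wild-type replicate 1) genes. Psme4 and Psme1 kept their direction under all 15 alternatives. The log2 fold change of Psmb6 was 0.00 without wild-type replicate 2, above 0 in sign, and that of Psme3ip1 was -0.04 with library size alone and -0.06 without knock-in replicate 2 (between -0.06 and 0.1 without single libraries); the cause was not tested. Over 12 named proteasome genes, 165 of 178 values under an alternative kept direction and side of the threshold. Most of these genes were not called to begin with. Of the 2 called genes, Psme4 kept both in 13 of 15 alternatives and Psme1 in 8 of 15. Under a minimum of 50 counts in 3 libraries, 43 of the 48 genes were tested, which left no value for Psma8 and Psmg3. No paired analysis was possible because the labels give the genotypes no shared replicate numbers. For the 7 genes under 2.5 CPM in both genotypes the counts limit what can be seen. Their standard errors reached 0.50 on the log2 scale, for Psmb11 at 0.446 CPM in knock-in and 0.48 CPM in wild-type mice.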
